A study of Mus musculus with 2 samples.

Results

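The S100 genes followed here, in salivary gland epithelial cells of young and aged mice, were S100a1, S100a4, S100a6, S100a10, S100a11, S100a13, S100a14, S100a16, S100b and S100g. They are the S100 genes on a fixed list that leaves out S100a8 and S100a9, and they were found by their gene names among the non-control probes of the arrays. This gave 10 of the 37007 gene names and 12 of the 56605 probes. The cells came from submandibular glands of female C57BL/6 mice (C57BL/6N in the methods of the study), for which the labels name no treatment and no engineered allele, with 1 array at 9 weeks of age (young) and 1 array at 24 months (aged). Cells were dissociated with enzymes and collected on magnetic beads against EpCAM, an adhesion molecule of epithelial cells, and RNA labelled with Cy3 was hybridized to Agilent mouse expression arrays on 1 slide. Per the methods of the study, the young mice came from a commercial breeder and the aged mice from the facility of the institute, so age and source of the mice cannot be told apart. How many animals were pooled for an array is not given in the sources used here.

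S100 proteins are small proteins that usually pair into dimers. Each chain carries a pair of EF hands, helix-loop-helix folds that hold calcium in the loop. Binding of calcium opens a surface on most of them, through which they grip target proteins such as annexins, cytoskeletal proteins and enzymes, and some are also released from cells and act on receptors such as RAGE. The genes are used in patterns that differ by cell type, and several serve as cell type markers.

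The probes on these arrays are 60 bases long, and 2 of those for the 10 genes lie on the part of the message that codes for the EF hand loop. Their sequences are given because they show what the array reads for the calcium-binding part of these genes. Capitals mark the bases that, translated in the open frame of the probe, match the standard EF hand pattern of the loop and the residue after it. The whole pattern lies in the S100a1 probe (39 bases) and its second part in the S100a6 probe (27 bases).
S100a1: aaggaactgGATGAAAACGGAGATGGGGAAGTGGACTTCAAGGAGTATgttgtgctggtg
S100a6: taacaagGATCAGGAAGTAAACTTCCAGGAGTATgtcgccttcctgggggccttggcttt
No run of 12 or more bases was shared between probes of different members, and the S100a4 probe shared at most 14 of its 60 bases in a row with a probe of any other gene. The longest such run was 19 bases, for S100a11.

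On mm9, the build given in the files, 8 of the 10 genes had their probes on chromosome 3, in the stretch from 90315191 to 93368496, and the others lay on chromosome 10 (S100b) and chromosome X (S100g). No exon or UTR annotation of that build was used here, so the position of the other probes within their messages was not assigned. Of the 10 genes, 8 had 1 probe and 2 (S100a10 and S100a16) had 2 probes, and every probe was spotted once. Both arrays read 59305 non-control spots, of which 32875 (55.4%) in young and 30111 (50.8%) in aged cells were marked as well above background by the scanner software. No spot was saturated, and no probe of the 10 genes was marked as an outlier.

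Levels are the processed signal of the scanner software and, on the log2 scale, that signal relative to the 75th percentile of the array, which was 256 for young and 198 for aged cells. Differences are aged minus young on this log2 scale, and a 2-fold difference, named in the methods of the study, was the threshold. The error beside a signal is the one the software gave. It contains a fixed 10% term and covers the spot, not the spread between mice, and it comes to about 0.20 on the log2 scale for a bright probe. With 1 array per age there was no replicate, no test and no p-value, so that each difference is between these arrays. In addition, fewer cells of a type and less RNA per cell cannot be told apart in bulk RNA. Levels of different probes are not comparable with each other, and only differences are compared between genes. A summed level of a gene list, where given, is the log2 of the sum of the scaled signals of its genes measured on both arrays. The brightest probes weigh most in it, and it is not an amount of a cell type.

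S100a4 was the 1 gene of the 10 whose arrays differed by more than 2-fold where both were well above background, and it was 4.73-fold lower in aged cells. S100a6 and S100a10 were lower and S100a16 was higher on the aged array by less than 2-fold, while S100a1, S100a11 and S100a13 differed by no more than the error of the software. S100a14 and S100b were near the background, with S100a14 well above it on the young array only and S100b on the aged array only. S100g had no level well above background at either age.

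**Figure D1:**
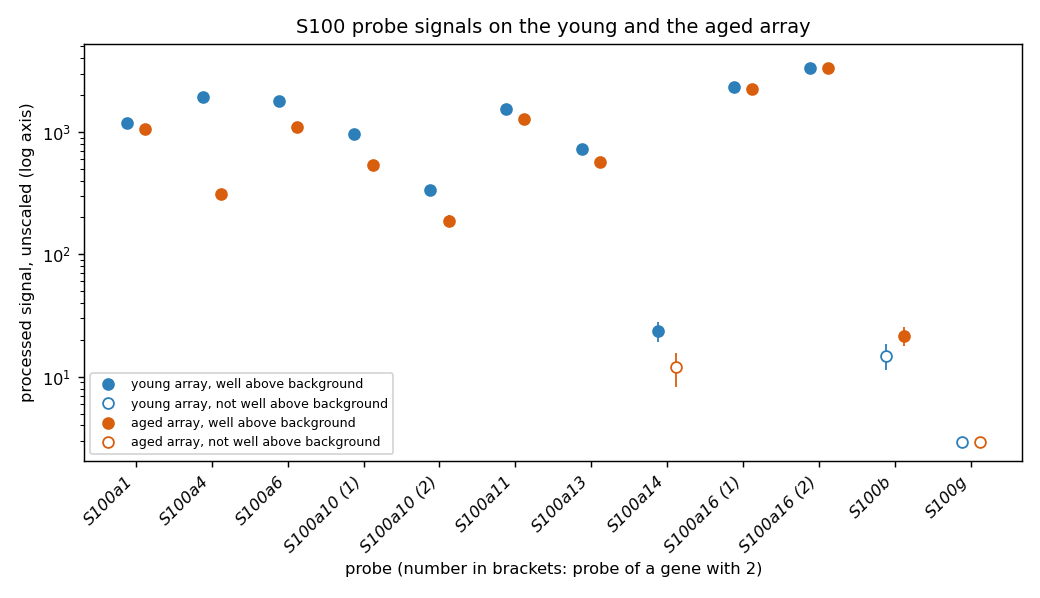
Processed signal (log axis, not scaled between arrays) of the 12 S100 probes on the young and the aged array, with open circles for probes not well above background and bars for the error of the scanner software, which are smaller than most points and left out for S100g, where the software wrote a substitute value. S100a4 has the widest gap among the probes with filled circles on both arrays, from 1917 on the young to 313 on the aged array.

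Counted over the members, 7 of 10 were well above background on both arrays, 1 on the young array only, 1 on the aged array only and 1 on neither, so 9 passed the filter on dim probes. Of the 7 measured on both arrays, 1 was at least 2-fold lower and 0 were at least 2-fold higher. Over all 18745 genes measured on both arrays, 571 (3.05%) were at least 2-fold lower and 284 (1.52%) at least 2-fold higher. These 7 genes are too few for a count of 1 to be set against such shares. The median difference of the 7 was 0.02, beside 0.09 for all genes measured on both arrays. That general median moved with the scaling, by 0.17 when the arrays were centred on their medians and by -0.26 when they were set level on the spike-in controls. The share of higher calls among all calls on the array moved with it, from 33.2% to 52.7% and 13.9%. Differences relative to the general median are therefore given as well.

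S100a4, also called metastasin or fibroblast-specific protein, binds non-muscle myosin and is known as abundant in fibroblasts, macrophages and other motile cells. Its probe (NM_011311, chr3:90409842-90409902, plus strand) had a signal of 1917 ± 192 in young and 313 ± 31.5 in aged cells. On the log2 scale relative to the 75th percentile, this was 2.90 and 0.66, a difference of -2.24 with a software error of 0.20. Both values were far above the lowest signal marked as well above background, which was 14.1 in young and 14.3 in aged cells, so the lower value was a measured level and not a limit. Relative to the general median the difference was -2.34. Over 7 ways of scaling and background correction, the 75th percentile included, it ranged from -2.50 to -2.07, so every one of them left it at more than 2-fold. Without any scaling it was -2.61. Of the 18745 genes measured on both arrays, 59 (0.315%) had a difference as far down or further.

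The difference of S100a4 stood apart from that of the other members. The other 6 genes measured on both arrays ranged from -0.48 to 0.37 with a median of 0.06, and S100a4 minus that median came to -2.31. S100a6 lies close to S100a4 on chromosome 3, and the difference of S100a4 minus that of S100a6 came to -1.89. This rests on 1 probe of S100a4 on 1 array per age.

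**Figure D2:**
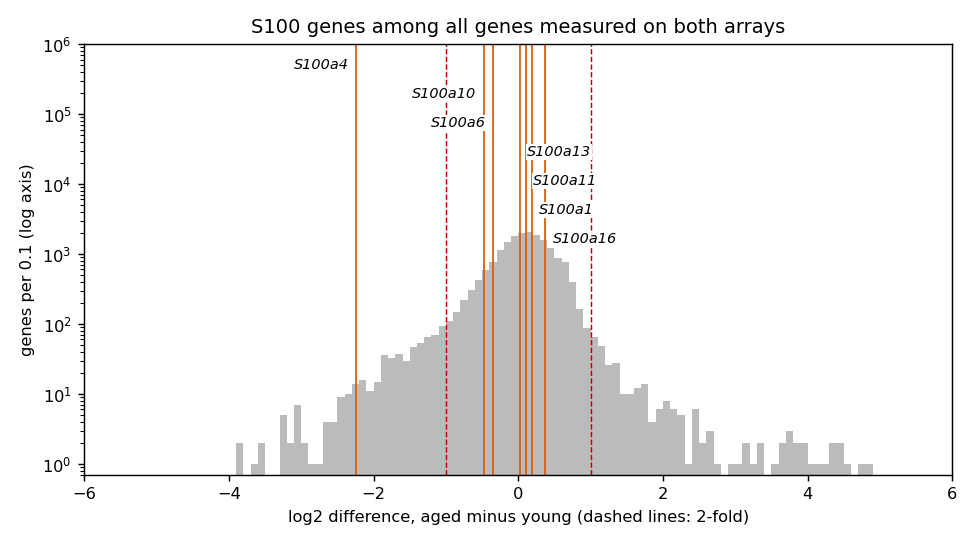
Histogram of the log2 difference, aged minus young, of all 18745 genes measured on both arrays (counts per step of 0.1 on a log axis), with an orange line for each of the 7 S100 genes measured on both arrays. S100a4 at -2.24 lies in the lower tail beyond the dashed 2-fold line, while the other 6 lie between -0.48 and 0.37.

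S100a6 (calcyclin), which binds the ubiquitin ligase adaptor protein encoded by Cacybp and some annexins, and which is found in many proliferating cells, was also lower in aged cells, by less than 2-fold. Its probe (NM_011313, chr3:90418160-90418219, plus strand), with the partial EF hand loop shown above, read 1800 ± 180 in young and 1089 ± 109 in aged cells. The difference was -0.35 with an error of 0.20, a 1.28-fold lower level, and -0.45 relative to the general median. It stayed below 0 over the 7 scalings, from -0.61 to -0.18. Among all genes measured on both arrays, 38.4% had a larger difference in absolute size.

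S100a10 (p11) does not respond to calcium, having lost calcium binding in its EF hands. It joins annexin A2 into a complex at the plasma membrane that binds Ahnak and surface channels. Both of its probes were measured on both arrays. The brighter probe (NM_009112, chr3:93368437-93368496, plus strand) read 962 ± 96.3 in young and 533 ± 53.4 in aged cells. The other probe (chr3:93368276-93368335) read 337 ± 33.9 in young and 189 ± 19.1 in aged cells. Their differences, -0.48 and -0.47, lay 0.014 apart, and the first corresponds to a 1.39-fold lower level. Over the scalings the brighter probe gave -0.74 to -0.31 and the other -0.72 to -0.29, and neither reached 2-fold. Of all genes measured on both arrays, 24.8% had a larger absolute difference than S100a10.

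S100a16, which is expressed in many epithelia, differed the other way. Its brighter probe (NM_026416, chr3:90346875-90346934) read 3330 ± 333 in young and 3332 ± 333 in aged cells, so that the signals were level before scaling. The second probe (chr3:90346529-90346588) read 2315 ± 232 in young and 2245 ± 224 in aged cells. After scaling to the 75th percentile, the differences were 0.37 and 0.33, each with an error of 0.20, and the first is a 1.29-fold higher level. Both stayed above 0 over the 7 scalings, with lowest values of 0.05 and 0.04 and highest values of 0.55 and 0.50. The difference relative to the general median was 0.28 for the first probe. The absolute difference was exceeded by 36.0% of all genes measured on both arrays.

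S100a1, S100a11 and S100a13 differed between the ages by less than the error of the software. S100a1, known from heart and skeletal muscle, where it acts on the ryanodine receptor, read 1192 ± 119 in young and 1051 ± 105 in aged cells with the probe whose EF hand loop is shown above (NM_011309, chr3:90315191-90315250, minus strand). Its difference was 0.19 with an error of 0.20. S100a11 (calgizzarin), a partner of annexin A1 in membrane and cytoskeletal work, read 1532 ± 153 in young and 1277 ± 128 in aged cells (NM_016740, chr3:93330022-93330081), a difference of 0.11. S100a13, which takes part in the release of FGF1, a growth factor that lacks a signal peptide, read 727 ± 72.7 in young and 569 ± 57.0 in aged cells (NM_009113, with its 60 bases spread by the file over chr3:90319950-90328319), a difference of 0.02. The signs of these 3 differences depended on the scaling. S100a1 was above 0 in 5 of 7 scalings (-0.07 to 0.36), S100a11 in 3 (-0.15 to 0.28) and S100a13 in 2 (-0.24 to 0.19). A larger absolute difference was found for 63.1% of all genes measured on both arrays for S100a1, for 78.1% for S100a11 and for 96.0% for S100a13.

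**Figure D3:**
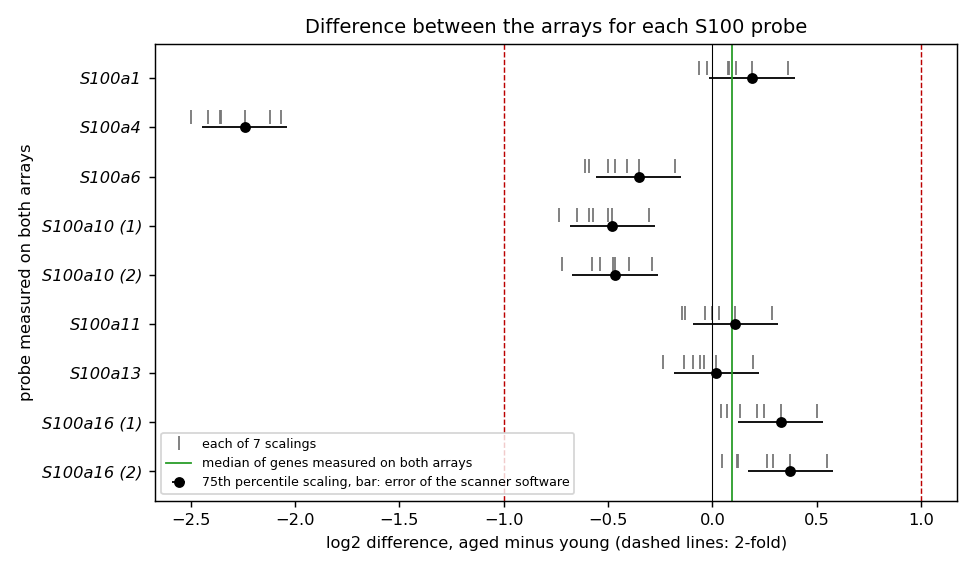
Log2 difference, aged minus young, for the 9 S100 probes measured on both arrays: points with bars give the value scaled to the 75th percentile and the error of the scanner software, ticks the 7 scalings, and dashed lines a 2-fold difference. S100a4 at -2.24 stays beyond 2-fold under every scaling, the probes of S100a6 and S100a10 stay below 0 and those of S100a16 above 0, and S100a1, S100a11 and S100a13 lie on both sides of 0.

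The members near the background gave limits rather than levels. S100a14, an epithelial S100 protein whose gene lies beside that of S100a13, read 23.6 ± 4.24 in young cells, where it was well above background, and 11.997 ± 3.75 in aged cells (NM_025393, chr3:90332439-90332498), where it was not. The difference was -0.60 on the log2 scale, with an error of 0.52. Set against the dimmest signal that the aged array still marked as well above background, the limit for S100a14 was 1.28-fold lower (-0.35). That is smaller than the error. Over 6 of the 7 scalings, the limits of S100a14 ran from -0.61 to -0.18. With normexp background correction its difference was 0.07 and gave no limit, so the direction did not hold there. Among the 2116 genes with a level in young cells only, 24.9% had a limit of at least 2-fold.

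S100b, the S100 protein of astrocytes, Schwann cells and adipocytes and a ligand of RAGE, read 14.8 ± 3.58 on the young array, not well above background, and 21.6 ± 3.93 in aged cells, where it was (NM_009115, chr10:75723783-75723842). In aged cells it was 1.89-fold higher, a difference of 0.92 with an error of 0.44. The young signal lay above the dimmest marked signal, so the limit equals this plain difference and is no firm minimum. This limit ranged from 0.44 to 1.09 on the log2 scale over the scalings and passed 2-fold with median centring and with quantile normalization. Among the 485 genes with a level in aged cells only, 52.6% had a limit of at least 2-fold. Of the 10 Schwann cell and glia markers, 7 were measured at both ages, of which 0 were 2-fold different, with a median of -0.08, and their summed level relative to the 75th percentile was 4.33 in young and 4.19 in aged cells. Sox10, which encodes a transcription factor, weighs most in that sum, at 3.48 in young and 3.45 in aged cells, a difference of -0.03. Which cells its signal came from was not tested. Of 8 adipocyte markers, 3 were measured at both ages, Fabp4 (0.26), Lep (-0.05) and Pparg (-0.56), Cfd and Retn had a level in young cells only, and the other 3, Adipoq and Plin1 among them, had none.

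S100g (calbindin-D9k), which carries calcium through the cytoplasm of intestinal and other calcium-transporting epithelia under the control of vitamin D, read 2.94 in young and 2.95 in aged cells (NM_009789, chrX:159400032-159400091, minus strand). Both are substitute values that the software writes where a signal is below its error, and no fold is given. Among the genes of calcium transport, buffering and the vitamin D response, 9 of 18 were measured at both ages, of which 0 were 2-fold higher and 0 were 2-fold lower, with a median of 0.05. Vdr, the vitamin D receptor, read 76.5 in young and 39.9 in aged cells, a difference of -0.57 that its other probe repeated at -0.57. Trpv6, the epithelial calcium channel, differed by -0.12. Calr, the calcium-binding chaperone of the endoplasmic reticulum, read 4793 in young and 6454 in aged cells, a difference of 0.80. Calb1, the other vitamin D-dependent calbindin, had a level in aged cells only, with a limit of 1.77-fold upward. So did Cyp24a1, which breaks down vitamin D, with a limit of 1.36-fold upward. With a level in young cells only, Cyp27b1, which makes the active form of vitamin D, had a limit of 1.15-fold downward. For Pgr, the progesterone receptor, also with a level in young cells only, it was 1.41-fold downward. On the log2 scale, each of these limits was smaller than the software error of its difference. These errors were 1.19 for Calb1, 0.65 for Cyp24a1, 0.506 for Cyp27b1 and 0.504 for Pgr.

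The binding partners of the members differed less than S100a4. Differences here that are smaller than the shifts of the general median named above can change sign with the scaling. Of 12 annexins, 10 were measured at both ages, of which 0 were 2-fold higher and 0 were 2-fold lower, with differences from -0.61 to 0.67 around a median of 0.29. The low end was Anxa11, whose other probe gave 0.75. The high end was Anxa8, near the background with 16.3 in young and 19.9 in aged cells, and with an error of 0.41. Anxa2, the partner of S100a10, read 4708 in young and 2989 in aged cells, a difference of -0.28, and its second probe gave -0.51. Both lay below 0, as did both probes of S100a10. Anxa1, the partner of S100a11, read 5162 in young and 4627 in aged cells, a difference of 0.22.

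Of 20 other partners and receptors, 17 were measured at both ages, of which again 0 were 2-fold higher and 0 were 2-fold lower, with a median of -0.13. Ahnak, the scaffold protein bound by the complex of S100a10 and annexin A2, differed by -0.54, -0.74 and -0.91 over its 3 probes, all below 0. Myh9, the heavy chain of non-muscle myosin that S100a4 binds, read 5202 in young and 4043 in aged cells, a difference of 0.01 beside the -2.24 of S100a4. Cacybp, the partner of S100a6, differed by 0.48, opposite in sign to S100a6. Fgf1, released together with S100a13, differed by -0.04, with 0.29 for another probe. Ager, which encodes RAGE, differed by 0.42 at its brightest probe and between -0.25 and 0.15 at the others, so its probes did not settle a direction.

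The rest of the family was mostly dim. Of 14 S100 and S100 fused-type genes that are not among the 10, 13 were on the array and 2 were measured on both arrays, with differences of 0.91 for S100a2 and -0.31 for Tchh, which encodes a hair follicle protein. S100a8 and S100a9, the chains of the neutrophil protein calprotectin, had a level in aged cells only, higher there by at least 3.98-fold and 14.04-fold. S100a5 had a level in young cells only, with a limit of 1.16-fold downward (-0.22) that was smaller than its error of 0.68. S100a3 had a level in neither. By probe position, S100a2 lay before S100a4 on the chromosome, and S100a5 and then S100a6 after it.

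Since S100a4 is also a gene of fibroblasts and macrophages, markers of the cells that an EpCAM sort can carry along are given beside it. Of 10 macrophage and dendritic cell markers, all were measured on both arrays and 8 were lower in aged cells by 2-fold or more, with a median of -1.29, and their summed level on the log2 scale was 7.91 in young and 6.86 in aged cells. Lyz2, the lysozyme of macrophages, read 23810 in young and 4884 in aged cells (-1.91), Mrc1, a mannose receptor, read 683 in young and 143 in aged cells (-1.88), and Cd74, the invariant chain of MHC class II, differed by -1.67. Csf1r (-0.62) and Itgam (-0.05) were within 2-fold. The count of 8 became 6 with median centring, 7 with normexp and 9 with quantile normalization. Itgax was -1.64 at its brightest probe and 0.42 at a dimmer probe measured on both arrays. Of 8 general leukocyte markers, 4 of the 7 measured on both arrays were at least 2-fold lower. Cd53, with a level in young cells only, was 3.02-fold lower. The median of the 7 was -1.40, and their summed level was 5.17 in young and 4.63 in aged cells. The probes of Ptprc, which encodes CD45, disagreed, with -0.21 at the brightest and -1.53 at another. Those of Arhgdib gave 0.27 at the brightest and -1.61 at the other. Lcp1 stayed near level, between -0.11 and -0.06 at its probes measured on both arrays.

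Of 10 fibroblast markers, 3 of the 7 measured on both arrays were at least 2-fold lower. These were the collagen genes Col1a1 (-1.81), Col3a1 (-1.73) and Col1a2 (-1.44). Dcn (-0.98) and Lum (-0.91) were lower by less than 2-fold. Thy1 (0.34) and Fbln1 (0.06, with -0.25 at another probe) were not lower by their brightest probes. Pdgfra, with a level in young cells only, was 2.45-fold lower. The count of 3 became 5 with spike-in scaling and with the 75th percentile over probes detected on both arrays. The median of the 7 was -0.98 and their summed level was 4.26 in young and 3.25 in aged cells. The general epithelial markers stayed within 2-fold, with 0 of 10 at least 2-fold different and differences from -0.55 to 0.50. Their median was 0.07 and their summed level 9.08 in young and 9.23 in aged cells. The sign of that median depended on the scaling. It was 0.24 with median centring, -0.15 with quantile normalization, -0.19 with spike-in scaling and -0.23 with loess. Epcam itself differed by 0.20, Krt8 by 0.03 and Krt18 by 0.21, and all 10 were well above background on both arrays.

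S100a4 thus had the same sign as the medians of the macrophage, leukocyte and fibroblast lists, with a value of -0.95 for S100a4 minus the macrophage median. Not every gene on these lists was lower, as given above for Arhgdib, Lcp1, Fbln1 and Thy1. None of the 92 marker genes measured on both arrays was as far down as S100a4. Cd79b and Cnn1, both at -2.14, lay closer to it than its software error of 0.20. Markers with a level on 1 array only are not among the 92. The part of macrophages, other leukocytes and fibroblasts in the value of S100a4 was not tested. Other lists had single genes beyond 2-fold. Among basal and myoepithelial markers, 2 of 9 were lower, Cnn1 (-2.14) and Myh11 (-1.83), both of the contractile apparatus. Another probe of Myh11 gave 0.12. Acta2 was counted as unchanged by its brightest probe (-0.08), while another probe measured on both arrays gave -1.96. Its dimmest kept probe, with a level in young cells only, was at least 4.31-fold lower. Of the 11 genes listed here as acinar markers, 2 were higher, Bpifa2 (1.52) and Amy1 (1.23), and 1 was lower, Smgc (-1.79). Which cells these differences came from was not tested. The other probe of Amy1 gave -0.29, and the count of higher genes was 1 with the mean over probes, loess, spike-in scaling or normexp. Among T cell markers, 1 of 5 was lower, Cd2 (-1.28), and Cd3g was at least 2.06-fold lower, and among B cell markers Cd79b was lower (-2.14). With normexp, the counts of lower genes were 0 for T cells, 0 for B cells, 1 for basal and myoepithelial cells and 2 for leukocytes. Of the ductal (9), endothelial (8), adipocyte (3) and neutrophil (3) markers measured on both arrays, 0 were 2-fold different, with medians of -0.10, -0.54, -0.05 and -0.18, and S100a8 and S100a9 were the 2 neutrophil markers that were higher by their limits.

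**Figure D4:**
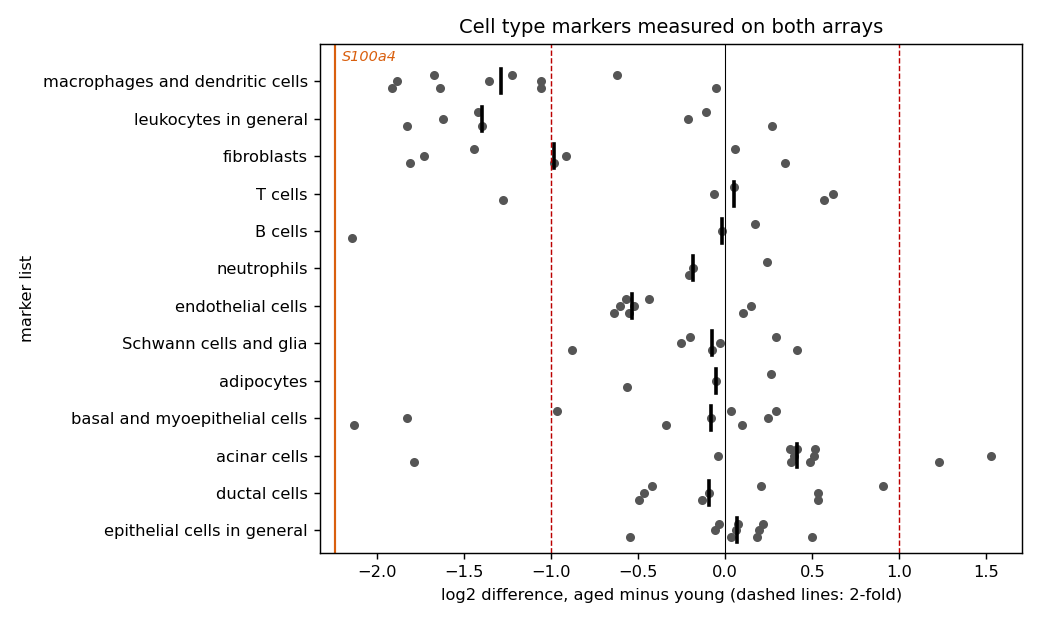
Log2 difference, aged minus young, of the cell type marker genes measured on both arrays (a point per gene, a black bar for the median of the list, dashed lines for 2-fold), with S100a4 as the orange line. The macrophage and dendritic cell list has its median at -1.29 and the epithelial list at 0.07, and S100a4 at -2.24 lies below all 92 points.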

How the data were processed

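EpCAM-selected submandibular gland epithelial cells of female C57BL/6 mice were measured on 2 one-colour arrays, 1 per age. The deposited scanner files (Agilent Feature Extraction 12.0.3.1, per the labels) give intensity after subtraction of a fitted background, with an error and marks for spots well above background. The deposited table of the authors, made with GeneSpring, holds the same intensity divided by a constant per array (229 young, 176 aged) and was used as an alternative.

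From the intensities, log2 of the processed signal minus log2 of the 75th percentile of the array was computed. Spots marked as outliers were left out, spots of a probe averaged, and probes kept where either array marked them as well above background (30907 probes, 21346 genes). The brightest kept probe stood for its gene. A 2-fold difference was the threshold. A probe marked so on 1 array only gives a lower limit of the fold. Its signal was divided by the dimmest marked signal of the other array or by the value of the probe there, whichever was larger. Where the value of the probe was larger, the limit is the plain fold. No limit allows for the error of the software. No test was possible with 1 array per age. For 293 probes with 5 or more spots, the SD of the difference between spots had a median of 0.034, which covers the array and not the mice.

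The members, the gene lists and the rule for named genes (all members, list genes beyond 2-fold and the main partner of each member) were chosen with earlier results of these data known. Names came from RefSeq accessions matched to a table of GRCm38.p6 (33767 of 56605 probes), used for names only. Alternatives were other scalings (median, 75th percentile over probes detected on both arrays, quantile, loess with span 0.7, spike-in controls), normexp with offset 50, the table of the authors, outlier spots kept, the mean over probes, and other filters. Python 3.11.15, pandas 2.3.3, numpy 2.4.6, R 4.3.3 and limma 3.58.1 were used, and the calls were tested on simulated data.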

Additional observations from a re-analysis of the deposited data

How the results depend on the processing

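S100a4 was the 1 member at least 2-fold lower under all 11 alternatives. The number of members at least 2-fold higher went from 0 to 1 with median centring and with quantile normalization, which in both cases was S100b by its limit, and the median difference of the members was -0.24 with spike-in scaling. Of the single values of the members under the alternatives, 81 moved by less than their error, 13 moved by more, and 0 of those that differed by 2-fold or more changed sign. Signs did change among the smaller differences, for S100a1, S100a11 and S100a13 with the scaling and for S100a14 with normexp. Of the medians and counts of the gene lists, 514 were marked as much the same and 47 as moved. Counts carry no software error, so for them these marks do not compare a shift with an error. The macrophage count of lower genes, 8 and then 6 with median centring, was marked as much the same. Over the whole array, the count of genes at least 2-fold higher was 464 with median centring, 150 with spike-in scaling, 107 with normexp and 1685 with no filter on dim probes, and the count lower was 932 with spike-in scaling, 209 with normexp and 2416 with no filter. The cause of these shifts was not tested, except that the last setting also counts probes that neither array marked as well above background. No paired analysis was possible because there was 1 array per age and the labels carry no replicate numbers, and for the same reason no array could be left out. Signal over background limits S100a14, S100b and S100g, and the number of arrays limits every value.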

Other observations

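The stretch of chromosome 3 that holds 8 of the members also holds the genes of the epidermal differentiation complex, which encode proteins of the cornified envelope of skin. Of 97 gene names with a probe between 90315191 and 93368496 on mm9, 44 passed the filter on dim probes, and 32 of these were not S100 genes. Among the 27 of them measured on both arrays, 0 were at least 2-fold higher and 1 was at least 2-fold lower, Sprr1a, a small proline-rich protein of stressed squamous epithelium, at -1.004 or 2.01-fold. The median of the 27 was 0.05. With a level in aged cells only, there were Gm35185, at least 4.04-fold higher, and Lce1m, a late cornified envelope gene, 2.35-fold higher.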
